A study of Mus musculus with 14 samples.

Results

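Natural killer (NK) receptor genes and the genes of the cytotoxic granule were compared between mouse spleen cells enriched for follicular dendritic cells and spleen cells depleted of them. The 10 genes were Klra7, Klrd1, Klrk1, Klrb1c and Ncr1 on the receptor side and Gzma, Gzmb, Gzmk, Prf1 and Nkg7 on the granule side. A probe set, the group of oligonucleotides that reports 1 transcript on an array, was taken when its only annotated gene symbol was 1 of these. Of the 10 genes, 9 had such a probe set, out of 15965 genes with a probe set of their own in the series, and these 9 had 15 of the 36899 probe sets. Klrb1c shared its only probe set with Klrb1b and has no value of its own.

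Total RNA of primary splenocytes was measured on 14 arrays of 3 designs, called A, B and C. Sets A and C held 2 depleted samples (D1 and D2) and 3 enriched samples (E1, E2 and E3), and set B lacked E1. Follicular dendritic cells (FDC) are the stromal cells of B cell follicles that keep antigen on their surface. The sources used here state no strain, age, treatment, isolation method or number of animals. Whether the samples of a group are separate animals is not said, so the p-values reflect only how much these samples vary, and that variation may be technical. Both fractions are mixtures of cells. Fewer cells of a type and less RNA per cell cannot be told apart in such samples.

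NK cells and cytotoxic T cells kill by releasing granules onto a target: perforin opens the target membrane and granzymes, which are serine proteases, enter and start cell death. Whether an NK cell fires is set by a balance of inhibitory receptors that read MHC class I, among them most Ly49 (Klra) proteins and the CD94 heterodimers, and of activating receptors such as NKG2D that read stress-induced ligands. In the spleen, NK cells lie mainly in the red pulp, and several of these genes are also used by CD8 T cells and other T cells.

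On the deposited intensity scale, 14 of the 15 member probe sets were lower on every enriched array than on every depleted array. The exception was a Gzma probe set of set C. The 14 include the probe sets too dim to test (Gzmk, Ncr1 and Klrk1 93678_s_at), whereas the shares given below cover tested probe sets only. Of the 12 probe sets bright enough to be tested, 10 fell in the enriched cells at an adjusted p under 0.05 (limma with Benjamini-Hochberg adjustment within the array set): 7 of 7 on set A, 0 of 1 on set B and 3 of 4 on set C. Over all tested probe sets, 17.9% fell on A, 17% on B and 8.73% on C, and every enriched array lay below every depleted one for 28.6% on A, 33.3% on B and 20.5% on C. By gene, with the brightest tested probe set standing for the gene, all 7 tested members fell (Klra7, Klrd1, Klrk1, Gzma, Gzmb, Prf1 and Nkg7), against 14.5% of 12267 genes that fell and 19.3% that rose. A count over these 7 is not evidence by itself, since Klra7 and Gzma passed the filter on dim values only through the 2 depleted arrays and therefore had to differ. With no filter, all 9 genes with a probe set fell. By probe set, 10 of 10 members then fell on A, 0 of 1 on B and 3 of 4 on C. The shares over all probe sets were 12.8% on A, 13.6% on B and 6.27% on C. The members were chosen with earlier results of these data known, so the counts with no filter are a description too. By the probe set that stands for each gene, the ratio of mean intensities, depleted over enriched, ran from 12.2 for Klra7, whose enriched values lie under the filter, to 1.26 for Klrk1.

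**Figure D1:**
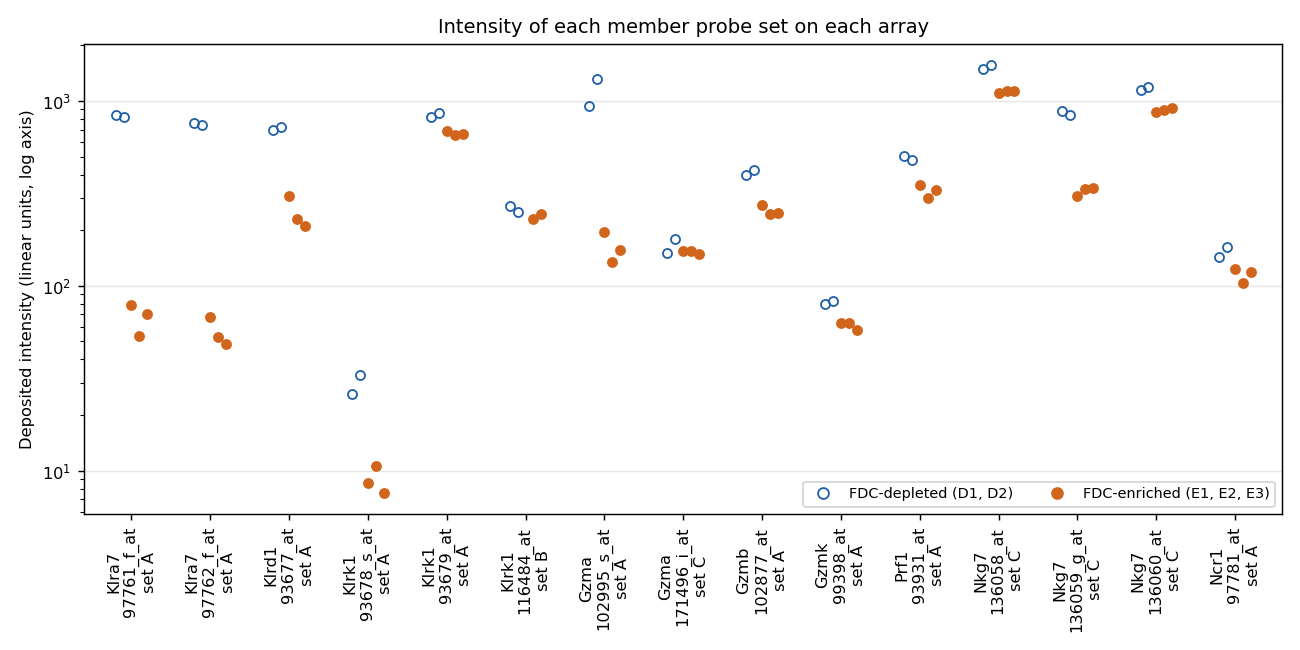
Deposited intensity (vertical log axis, linear units) of each of the 15 member probe sets on each array, with open circles for the 2 depleted and filled circles for the 2 or 3 enriched arrays. The groups overlap only for the Gzma probe set of array set C, and the gap is widest for the 2 Klra7 probe sets, at 745.5 to 835.6 in depleted against 48.47 to 78.64 in enriched cells.

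Klra7 encodes Ly49G, an inhibitory Ly49 receptor for MHC class I carried by a subset of NK cells. Its probe set 97761_f_at read 835.6 and 815.3 in the depleted samples and 78.64, 53.48 and 70.23 in the enriched ones. The groups lay far apart, with means of 825.5 ± 14.4 (SD, n = 2) and 67.45 ± 12.8 (SD, n = 3). The ratio of mean intensities was 12.2. On the log2(intensity + 88.49) scale of the test, where the pseudocount of 88.49 shrinks the change of dim probe sets, the difference was -2.55 (SE 0.084, 95% interval -2.75 to -2.36, adjusted p = 2.14e-07 by limma).

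The other Klra7 probe set, 97762_f_at, gave 757.7 and 745.5 against 67.8, 52.93 and 48.47. It repeated the separation, with a mean ratio of 13.3 and a log2 difference of -2.54 (SE 0.078, adjusted p = 1.62e-07 by limma). The changes of the pair of probe sets differed by -0.02 log2 (two-sided exact permutation p = 0.7 over 5 arrays). The enriched means of both probe sets lay below the pseudocount, so the size depended on it: the first probe set gave -3.15 with the 5th percentile of the intensities as pseudocount and -1.99 with the 40th. Ly49 genes are near copies of each other, and an "_f" in the name marks a probe set designed on a sequence family, so signal from related genes may be included.

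The promoters of Klra7 and of 4 granule genes, all of which fell, are printed. These 4 granule windows hold the core letters of the Runx binding site and the Klra7 window does not, which is why they were picked. The letters do not divide granule from receptor genes: they are missing from Gzmk and present in Klrk1, Klrb1c and Ncr1. Runx proteins are transcription factors of NK and T cells. The windows are the 250 bases before each annotated start, from RefSeq on build GRCm38.p6, read 5′ to 3′ along the gene's strand. Capitals mark TGTGGT or its reverse complement ACCACA. The Klra7 window (chr6:130233323-130233572, minus strand) is the upstream one of 2 annotated starts. The others are Gzma (chr13:113100982-113101231, minus strand), Gzmb (chr14:56262335-56262584, minus strand), Prf1 (chr10:61297586-61297835, plus strand) and Nkg7 (chr7:43436888-43437137, plus strand).
Klra7: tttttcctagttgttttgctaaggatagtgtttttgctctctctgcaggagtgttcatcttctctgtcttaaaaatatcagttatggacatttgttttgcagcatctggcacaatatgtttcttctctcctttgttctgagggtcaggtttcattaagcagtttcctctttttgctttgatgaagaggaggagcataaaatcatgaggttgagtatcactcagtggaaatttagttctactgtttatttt
Gzma: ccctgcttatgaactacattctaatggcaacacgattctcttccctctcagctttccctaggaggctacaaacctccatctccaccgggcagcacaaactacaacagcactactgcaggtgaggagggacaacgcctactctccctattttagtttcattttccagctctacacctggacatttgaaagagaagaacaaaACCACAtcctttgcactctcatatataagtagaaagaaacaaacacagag
Gzmb: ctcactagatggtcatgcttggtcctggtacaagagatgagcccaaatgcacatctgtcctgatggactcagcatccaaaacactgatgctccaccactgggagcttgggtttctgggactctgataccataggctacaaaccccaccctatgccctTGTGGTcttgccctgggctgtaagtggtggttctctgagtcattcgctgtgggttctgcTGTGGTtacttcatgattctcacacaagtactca
Prf1: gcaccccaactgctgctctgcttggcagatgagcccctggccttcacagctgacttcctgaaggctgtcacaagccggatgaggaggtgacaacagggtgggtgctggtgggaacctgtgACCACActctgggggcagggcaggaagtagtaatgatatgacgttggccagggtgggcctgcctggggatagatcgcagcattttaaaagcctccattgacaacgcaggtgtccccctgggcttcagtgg
Nkg7: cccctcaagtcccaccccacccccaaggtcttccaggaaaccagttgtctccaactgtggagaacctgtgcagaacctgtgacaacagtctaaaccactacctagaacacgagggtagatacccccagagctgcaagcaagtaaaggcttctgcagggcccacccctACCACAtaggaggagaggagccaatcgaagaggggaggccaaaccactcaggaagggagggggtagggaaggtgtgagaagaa

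The Runx letters lay 50 bases before the start in Gzma, 93 and 34 in Gzmb, 130 in Prf1 and 83 in Nkg7. Over the 9 members with a window (Klrd1 was not analysed here), 7 held them on either strand (Klrk1, Klrb1c, Gzma, Gzmb, Prf1, Nkg7 and Ncr1), while 14% of 32851 windows of the same length did. The T-box letters GTGTGA, read by T-bet and Eomes, were in 4 of 9 members (Gzmb, Gzmk, Nkg7 and Ncr1) against 12.3% of windows. The Ets letters AGGAAG were in 4 of 9 (Klra7 at its downstream start, Klrb1c, Prf1 and Nkg7) against 29.5%. The CRE letters TGACGT were in Prf1 alone (6.47% of windows), and the AP-1 letters TGANTCA were in Gzmb alone (6.75%). Members were counted by gene and the shares by window, and Klra7 and Ncr1 have 2 windows each, so the units are not alike. Each word was searched on both strands and apart from the others, so matches may overlap, and a match describes letters, not a bound site.

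**Figure D2:**
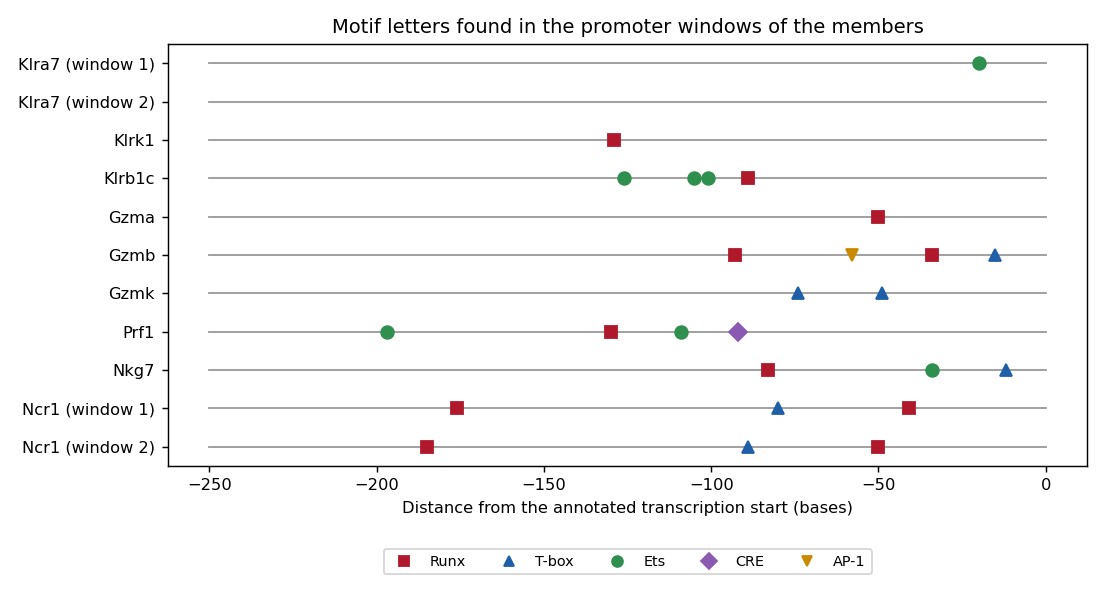
Positions of the 5 motifs in the 11 promoter windows of 9 members, as bases before the annotated start (horizontal axis), with 1 line per window and 1 marker shape per motif. Runx letters (squares) stand in the windows of 7 genes and are missing from both Klra7 windows and from Gzmk.

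Klrd1 encodes CD94, the chain that pairs with NKG2 proteins into receptors for the MHC class I molecule Qa-1. The depleted samples read 697.8 and 721.1 and the enriched samples 304.7, 230.9 and 210.4. All enriched values were below both depleted values, and E1 was the highest of the enriched. The means were 709.5 ± 16.5 (SD, n = 2) and 248.7 ± 49.6 (SD, n = 3), a ratio of 2.85. The log2 difference was -1.25 (SE 0.114, 95% interval -1.52 to -0.99, adjusted p = 5.29e-05 by limma), with 140 tested probe sets of set A falling further.

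Klrk1 encodes NKG2D, the activating receptor for stress-induced ligands, which signals through the adaptor Hcst. Its brightest probe set, 93679_at on set A, read 818.9 and 857.1 in depleted and 684.3, 651.6 and 665.7 in enriched cells. The groups did not overlap, but the gap was small. Means of 838 ± 27 (SD, n = 2) and 667.2 ± 16.4 (SD, n = 3) gave a log2 difference of -0.29 (SE 0.071, 95% interval -0.46 to -0.13, adjusted p = 0.0109 by limma). The call was lost without D1 (-0.32, adjusted p = 0.0652) and without D2 (-0.26, adjusted p = 0.123, both limma).

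On set B the Klrk1 probe set 116484_at read 270.9 and 250 in depleted and 229.1 and 243.9 in enriched cells. It did not pass, at a log2 difference of -0.10 (95% interval -0.24 to 0.03, adjusted p = 0.222 by limma), and a smaller change inside that interval cannot be told from none. Another Klrk1 probe set, 93678_s_at on set A, was too dim to test at 26.16 and 32.88 against 8.578, 10.65 and 7.582. Its ratio of mean intensities was 3.3, and with no filter its log2 difference was -0.28 (SE 0.038, adjusted p = 6.53e-04 by limma). By the probe set that stands for each gene, Klrk1 showed the smallest tested fall of a member gene. In the gene order of GRCm38.p6, Klrd1 and Klrk1 are direct neighbours on chromosome 6 with 0 protein-coding genes between them, and 12 lie between Klrk1 and Klra7. The neighbours' log2 differences were -1.25 and -0.29, and the gap between them was not tested.

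Ncr1 encodes NKp46, an activating receptor that is among the most selective NK cell markers. Its probe set lay under the filter, at 142.9 and 162.2 in depleted and 122.6, 103.8 and 118.1 in enriched cells. The enriched values were all lower, and with no filter the log2 difference was -0.25 (SE 0.070, adjusted p = 0.029 by limma). The probe set shared by Klrb1b and Klrb1c, the latter encoding NK1.1, read 269.1 and 276.1 against 191.7, 165.4 and 181. It fell by 0.43 on the log2 scale (adjusted p = 0.00153 by limma), was above the filter on the depleted arrays alone, and is assigned to neither gene. The separate Klrb1b probe set did not pass, at 0.03 (adjusted p = 0.794 by limma).

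Among the granule genes, Gzma encodes granzyme A, a trypsin-like protease abundant in resting mouse NK cells. Its probe set 102995_s_at on set A read 935 and 1312 in depleted cells and 194.9, 134.2 and 156.4 in enriched cells. Both depleted values lay far above every enriched one, although they differed from each other more than those of any other member. Means of 1123 ± 266 (SD, n = 2) and 161.9 ± 30.7 (SD, n = 3) gave a ratio of 6.94. The log2 difference was -2.26 (SE 0.146, 95% interval -2.60 to -1.93, adjusted p = 6.87e-06 by limma).

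The Gzma probe set of set C, 171496_i_at, did not show this. It read 151.3 and 178.8 in depleted and 154.4, 154.2 and 148.8 in enriched cells, so the groups overlapped. The log2 difference was -0.08 (95% interval -0.22 to 0.06, adjusted p = 0.409 by limma) and turned to 0.01 without D2. The probe sets lie on different array designs, and what separates them was not tested. An "_i" in the name marks a probe set with fewer usable oligonucleotides than the design aimed for. The set A probe set carries an "_s" instead. No probe sequences were available, so it cannot be said which of them reports Gzma.

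Gzmb encodes granzyme B, which cuts caspases and other proteins after aspartate. It read 396.7 and 421.6 in depleted and 274.4, 243.1 and 248.6 in enriched cells. The groups were separate, with means of 409.2 ± 17.6 (SD, n = 2) and 255.4 ± 16.7 (SD, n = 3). The ratio was 1.6 and the log2 difference -0.53 (SE 0.072, 95% interval -0.70 to -0.37, adjusted p = 5.12e-04 by limma).

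Prf1, the gene of the pore-forming perforin, moved by a like amount. It read 503.2 and 477.6 in depleted and 349.4, 299.5 and 330.1 in enriched cells. No enriched value reached a depleted one, and means of 490.4 ± 18.1 (SD, n = 2) and 326.4 ± 25.2 (SD, n = 3) gave a ratio of 1.5. The log2 difference was -0.48 (SE 0.077, 95% interval -0.66 to -0.30, adjusted p = 0.00128 by limma).

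Gzmk encodes granzyme K, a trypsin-like relative of granzyme A and its direct neighbour on chromosome 13, with 0 protein-coding genes between them. It was too dim to test, at 79.37 and 82.38 in depleted and 63.24, 62.99 and 57.44 in enriched cells. With no filter the log2 difference was -0.18 (SE 0.048, adjusted p = 0.0232 by limma).

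Nkg7 encodes a membrane protein of cytotoxic granules and was measured by 3 probe sets, all on set C. The brightest, 136058_at, read 1491 and 1557 in depleted and 1109, 1125 and 1126 in enriched cells. The enriched values were tightly grouped below the depleted ones, and the log2 difference was -0.43 (SE 0.050, 95% interval -0.54 to -0.31, adjusted p = 4.90e-04 by limma). Probe set 136060_at, at 1148 and 1187 against 870.9, 891.7 and 911.8, gave -0.37 (SE 0.052, adjusted p = 0.00127 by limma). Probe set 136059_g_at showed a larger gap. It read 876.8 and 839.4 in depleted and 307.6, 336 and 339.4 in enriched cells, and its log2 difference was -1.26 (SE 0.059, 95% interval -1.39 to -1.12, adjusted p = 2.47e-06 by limma). Its change was larger than those of the other probe sets by 0.83 and 0.89 log2, each with an exact permutation p of 0.1, the smallest that 2 against 3 arrays can give. The changes of 136058_at and 136060_at differed by only -0.06 log2, also with an exact permutation p of 0.1. That test therefore cannot single out 136059_g_at. The estimates for Nkg7, -1.26, -0.43 and -0.37, differed in size between probe sets but not in direction.

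**Figure D3:**
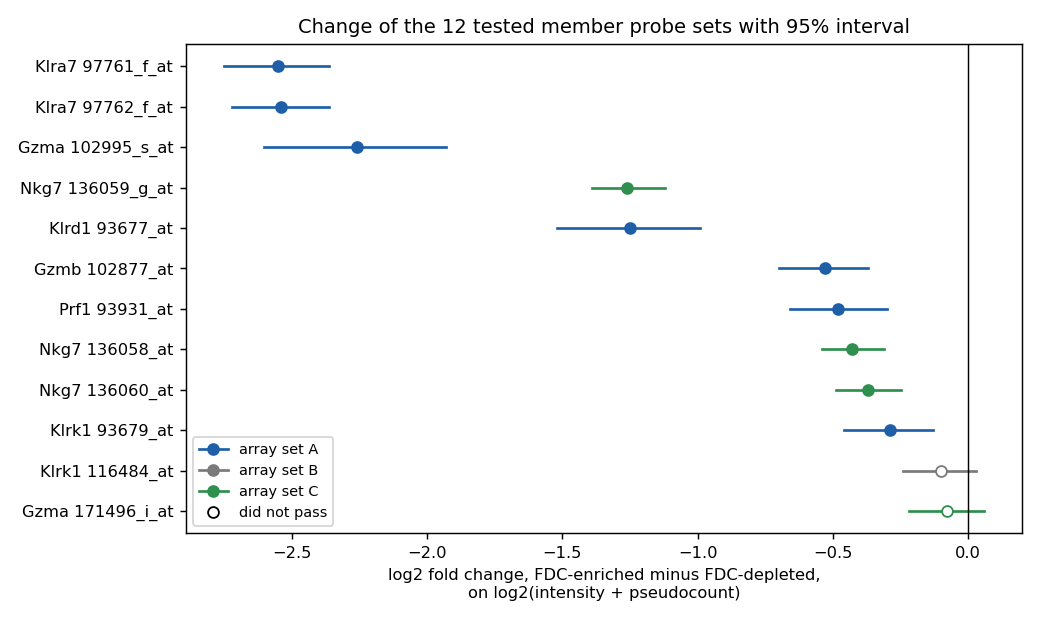
Log2 difference, enriched minus depleted on the log2(intensity + pseudocount) scale (horizontal axis), of the 12 tested member probe sets with 95% intervals. Colours give the array set and open symbols the 2 probe sets that did not pass; the 2 Klra7 probe sets and Gzma on set A lie beyond -2, and Klrk1 on set B and Gzma on set C cross 0.

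Among probe sets of related Ly49 genes, those that were bright in depleted cells alone had to be lower in enriched cells. The tested one that was bright on all arrays, Klra6, did not pass. Klra3, which encodes the inhibitory receptor Ly49C, read 504.3 and 439.4 in depleted and 73.12, 74.61 and 77.14 in enriched cells, a log2 difference of -1.78 (adjusted p = 6.68e-07 by limma). Like Klra7, it was above the filter on the depleted arrays alone and so had to differ. Its enriched values lay under the pseudocount, and its log2 difference ran from -2.26 to -1.32 over the settings tried. Klra6 read 590.7 and 642.1 against 634, 554.9 and 605.4, so the groups overlapped, and its log2 difference of -0.04 did not pass (adjusted p = 0.752 by limma). Of 8 probe sets annotated to several Ly49, Klrb1 or granzyme genes, 7 were lower on every enriched array. Of the 7, 2 were too dim to test. The share over all tested probe sets of set A was 28.6%. The 4 tested ones of Ly49 genes alone gave log2 differences of -1.81, -1.44, -1.42 and -1.33. These 4 and the probe set shared by Klrb1b and Klrb1c were above the filter on the depleted arrays alone and so had to differ. The count of 7 and these values are therefore a description. The probe set shared by Gzme and Gzmd overlapped between the groups and did not pass, at 0.04.

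**Figure D4:**
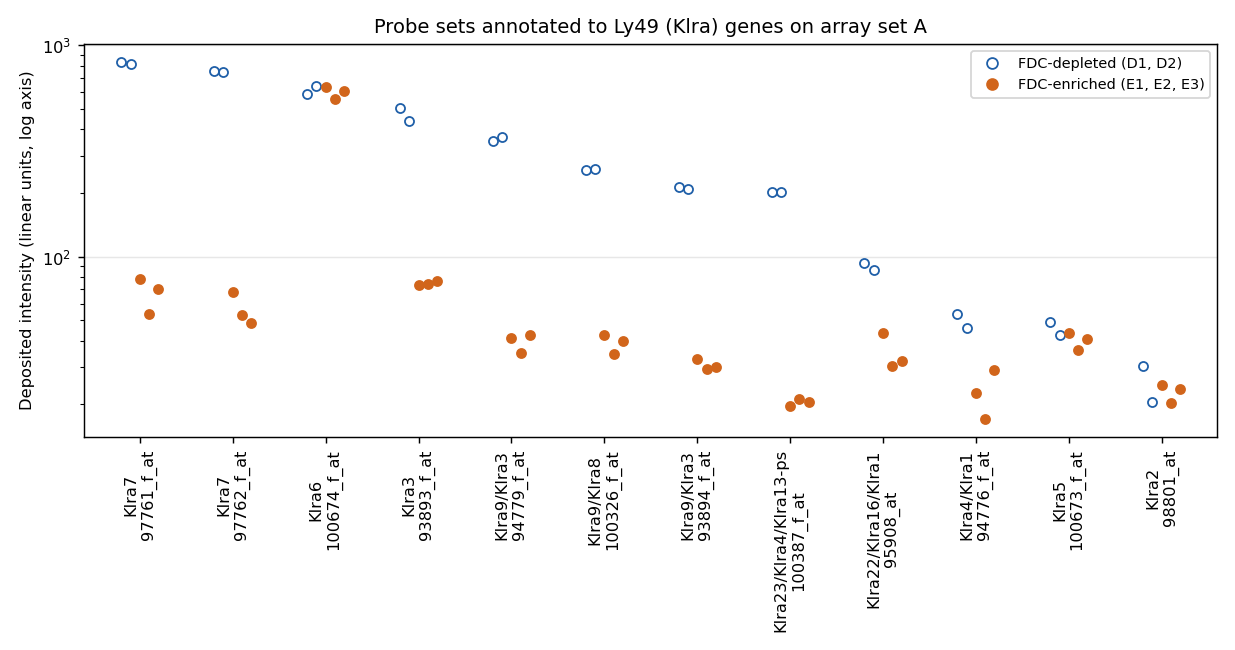
Deposited intensity (vertical log axis, linear units) of the 12 probe sets of array set A annotated to Ly49 (Klra) genes, named by all symbols of their annotation, with open circles for depleted and filled circles for enriched arrays. The groups overlap for Klra6 and for the dim Klra5 and Klra2, and are apart for the other 9.

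Of 26 further lectin-like NK receptor genes, 10 had a probe set of their own and 6 were tested. Klra3 and Klre1 fell, and Klra6, Klrb1, Klrb1b and Klrc1 did not pass, with a median log2 difference over the 6 of -0.06 against 0.02 over all tested genes. Klre1, a receptor chain of the same NK gene complex, read 538.4 and 528.1 in depleted and 369.6 and 482.9 in enriched cells on set B. It fell by 0.29 (adjusted p = 0.0428 by limma). Without D1 the difference was -0.27 (adjusted p = 0.154) and without D2 -0.30 (adjusted p = 0.125), and without E2 it shrank to -0.12 (adjusted p = 0.274, all limma), so the call was lost each time. Klrc1, the NKG2A partner of CD94, read 411.4 and 387.8 against 399.6, 344 and 377.3. Its log2 difference of -0.08 did not pass (adjusted p = 0.461 by limma) beside -1.25 for Klrd1, and the gap between them was not tested.

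For the other NK surface receptors and adaptors, 13 of 24 genes were tested, of which 5 fell, 2 rose and 6 did not pass (median -0.25). Where a list held more than 5 passing genes, the rest are named too, after their values were seen, so that each passing gene of the NK lists is accounted for. Hcst, the DAP10 adaptor of NKG2D, read 760.6 and 909.9 in depleted and 202.6 and 175.9 in enriched cells. This was a log2 difference of -1.76 (adjusted p = 2.01e-07 by limma), beside -0.29 for its receptor gene Klrk1. Il2rb, the receptor chain shared by interleukin 2 and interleukin 15, read 1006 and 932.2 against 271.4 and 222.4 (-1.68, adjusted p = 1.80e-07 by limma). Sh2d1a, the SAP adaptor of SLAM receptors, fell from 199.9 and 183.3 to 42.78, 52.65 and 59.55 (adjusted p = 2.16e-05 by limma). The enriched values of Sh2d1a lay under the pseudocount, and its log2 difference ran from -1.45 to -0.66 over the settings tried. Cd247, the CD3 zeta chain (-0.78), and Cd96 (-0.33) also fell, but the fall of Cd96 was lost without D1 when the tested probe sets were held fixed.

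The genes that rose were the adaptors shared with myeloid cells. Tyrobp, which encodes DAP12, read 1101 and 1199 in depleted and 1407, 1655 and 1476 in enriched cells (0.37, adjusted p = 0.0127 by limma). Fcer1g, the Fc receptor gamma chain, read 587.8 and 627.6 against 822.1 and 724.1, with no value for E2 (0.31, adjusted p = 0.0356 by limma). Neither rise was stable: Tyrobp was lost without D1 or D2, and Fcer1g without D1, D2 or E1 and under quantile or median scaling. Macrophage markers moved with them, as 9 of 10 rose (median 0.81), against 19.3% of all tested genes. Their summed level on set A was 9851 to 12080 in depleted and 22390 to 26280 in enriched cells, and their part in these rises was not tested. Of these markers, Marco passed the filter on the enriched arrays alone, and the rise of Adgre1 was lost under both other scalings and without D1, D2 or E3. Vcam1 is also counted among the FDC genes below, and its rise was lost without D1.

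Lytic granule and exocytosis genes moved in both directions: of 13 tested of 20, 5 fell, 4 rose and 4 did not pass (median -0.20). Ctsw, a cathepsin of NK and cytotoxic T cells, read 480.8 and 472.6 in depleted and 144.8, 142.6 and 142.5 in enriched cells (-1.29, adjusted p = 1.51e-06 by limma). Rab27a, the small GTPase that docks lytic granules, read 366.9 and 326 against 94.77 and 89.7 on set B (-1.30, adjusted p = 1.78e-07 by limma). Fas ligand, Fasl (-0.84), and the granule priming and fusion factors Stxbp2 (-0.40) and Unc13d (-0.38) fell as well. Ctsw, Rab27a and Fasl were above the filter on the depleted arrays alone.

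The 4 genes of that list that rose were Serpinb9, Serpinb6b, Stx11 and Lamp1. Serpinb9, which inhibits granzyme B, read 412.7 and 546.2 in depleted and 1649, 2227 and 1975 in enriched cells. Its log2 difference of 1.84 (adjusted p = 1.92e-05 by limma) was opposite in sign to that of Gzmb, at -0.53. Serpinb6b, a related serpin, read 171.8 and 229.8 against 1343 and 1473 on set B (2.41, adjusted p = 4.89e-08 by limma). Stx11, a syntaxin of granule fusion (1.71, adjusted p = 4.52e-05), and Lamp1, a lysosomal membrane protein of many cell types (0.82, adjusted p = 8.01e-05, both limma), also rose.

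Transcription factors of cytotoxic lymphocytes gave 3 falls and 1 rise among 9 tested of 16, with a median of -0.11. Ets1, which NK cell development requires, read 862.9 and 881.1 in depleted and 383.9, 454.6 and 486.5 in enriched cells (-0.91, adjusted p = 1.40e-04 by limma). Klf2 (-0.39) and Bcl11b (-0.30) fell, Klf2 not without D1 (adjusted p = 0.0536). Id2, which NK cells and many other cells use, rose from 2201 and 2174 to 3687, 4056 and 3570 (0.76, adjusted p = 1.47e-04 by limma). Eomes and Runx3 were too dim to test, and Tbx21 had no probe set of its own.

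Of the cytokine receptor and signalling genes, 9 of 14 were tested, 5 fell, 1 rose and 3 did not pass (median -0.24). Il7r, the interleukin 7 receptor chain, read 1142 and 1252 in depleted and 94.29, 106.8 and 103.7 in enriched cells (-2.76, adjusted p = 9.90e-08 by limma), beside -2.55 for Klra7. Il18r1 (-1.09), Stat4 (-0.45), Il18rap (-0.32) and Stat5b (-0.24) fell, and Jak3 rose (0.28). The call of Stat4 was lost without D2, that of Stat5b without D1, those of Il18rap and Jak3 without either, that of Il18rap also without E3 and that of Jak3 also under both other scalings. Il7r and Il18r1, like Cd247, Sh2d1a and Cd96 above, were above the filter on the depleted arrays alone. The enriched values of Il18r1, 38.72 to 42.66, lay under the pseudocount, and its difference ran from -1.63 to -0.71 over the settings tried. Among effector genes, 3 of 6 tested fell (Ccl5 -0.77, Cxcr3 -0.32, Xcl1 -0.24), Ccl4 rose (0.84) and Ccl3 and Cx3cr1 did not pass. Ccl4, a chemokine of NK cells and macrophages, read 2324 and 2358 against 4405, 4301 and 4075 (adjusted p = 4.74e-05 by limma). The falls of Cxcr3 and Xcl1 were lost without D1 or D2, and that of Xcl1 also without E2 or E3, with no filter and with adjustment over all array sets.

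Of 20 genes of ligands that NK receptors read, 6 were tested, of which 2 rose, 1 fell and 3 did not pass (median 0.17). Nectin2 and Pvr, ligands of the activating receptor DNAM-1, rose. Nectin2 read 837.7 and 880.6 against 1754, 1514 and 1511 (0.82, adjusted p = 1.46e-04 by limma), and Pvr read 702.4 and 657.1 against 883.4 and 877.7 (0.34, adjusted p = 0.00239 by limma). Cd48, the ligand of the SLAM receptor 2B4 carried by most leukocytes, fell (-0.64, adjusted p = 1.83e-04 by limma). The MHC class I genes H2-D1 (0.21) and H2-K1 (0.14), whose products the inhibitory Ly49 receptors bind, did not pass.

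**Figure D5:**
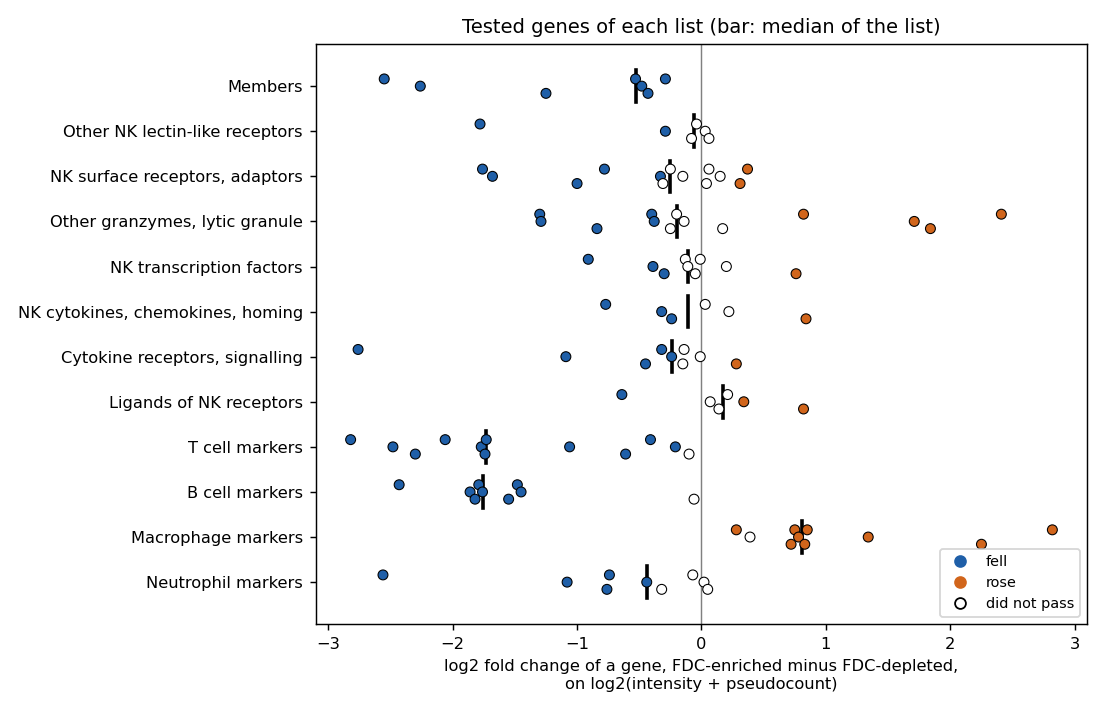
Log2 difference, enriched minus depleted on the log2(intensity + pseudocount) scale (horizontal axis), of the tested genes of 12 lists, 1 point per gene by its brightest tested probe set, with a bar at each median. Filled points passed the test (blue fell, orange rose); the members' median is -0.53, that of T cell markers -1.73, of B cell markers -1.76 and of macrophage markers 0.81.

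Markers of other cell types moved in both directions. Of 6 tested plasmacytoid dendritic cell markers, 2 rose and 2 fell, and of 7 tested mast cell and basophil markers, 2 rose and 1 fell. In these lists the fall of Irf8 and the rise of Gata2 were lost without D1, and Hdc was above the filter on the depleted arrays alone. Of 12 tested T cell markers, 11 fell (median -1.73). Of these, Cd3d, Cd3g, Cd8b1 and Cd28 were above the filter on the depleted arrays alone and had to differ, and the fall of Cd4 was lost without D1, D2, E2 or E3, with no filter and with adjustment over all array sets. The list's summed level on set A was 10260 to 10820 in depleted and 3697 to 3976 in enriched cells. Cd2, bright on all arrays, read 1822 and 1766 against 543.9, 474.8 and 424.5, and no tested T cell marker was listed at 0. B cell markers, 8 of 9, and neutrophil markers, 5 of 9, fell as well, with medians of -1.76 and -0.44, the neutrophil gene Ltf again passing the filter on the depleted arrays alone. The summed level of the members on set A was 4187 to 4605 in depleted and 1613 to 1886 in enriched cells. NK cells and T cells share several members, and the part of each in the falls was not tested. Of 9 FDC genes, 7 rose. Clu, bright on all arrays, went from 422.5 and 468.9 to 5498, 5754 and 6465, whereas Cxcl13 and Coch were above the filter on the enriched arrays alone and had to differ. The rise of Madcam1 was lost without D1 or D2 and under quantile normalization, and that of Vcam1 without D1. Cr2 fell (-0.42, adjusted p = 0.017 by limma), a call lost without D1 (-0.38, adjusted p = 0.0973). All 8 endothelial markers rose (median 3.71), of which Cdh5, Tie1, Cldn5 and Sox17 passed the filter on the enriched arrays alone.

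The genes whose profile over the 5 arrays lay nearest to each member's were found by the root mean square difference of centred log2 values, as a description with no test. For Klra7 they were Thy1 (0.087), Tspan32 (0.142) and Cd3d (0.147), and for Gzma they were Klra7 (0.213), Ripor2 (0.225) and Cd28 (0.232). Klrd1 lay nearest to Rhoh (0.081), Trav9d-3 (0.109) and Pde7a (0.120). Gzmb lay nearest to Septin1 (0.015), Cd27 (0.027) and Rbm6 (0.036), and Prf1 to Prr5 (0.029), Tbce (0.034) and Parp1 (0.035). For Klrk1 the nearest were Cramp1l (0.015), Acap1 (0.018) and Hltf (0.020), and for Nkg7 on set C Harbi1 (0.022), Ext1 (0.022) and Yeats2 (0.023). With only 2 groups of arrays, this measure matches genes mainly by the size of their difference.

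Facts of the whole series bear on these sizes. Median intensities on set A were 244 to 250.8 in depleted and 264.7 to 279 in enriched samples, with Spearman correlations of 0.9862 to 0.9955 within and 0.9136 to 0.9205 between groups. On set A, 43.7% of the passing probe sets fell on the deposited scale, against 58.5% after quantile normalization and 57.3% after scaling to the median, and the calls of the members were the same under all 3. With 4 or 5 arrays a set, the precision of each value is limited by their number.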

How the data were processed

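Per the labels, RNA from FDC-enriched and FDC-depleted mouse splenocytes was hybridised to 3 array sets. The authors deposited linear intensity values, 1 per probe set and array; how they were summarised, corrected for background and scaled is stated nowhere in the sources used here. The arrays' trimmed means differed by a factor of 1.08, 1.03 and 1.02 on A, B and C, within 10%, so the deposited scale was kept. E2 had no value for 893 probe sets on A, which were fitted on the other arrays. Probe sets were named from GEO's platform annotation, with symbols updated to GRCm38.p6; 10833, 10581 and 7717 had 1 symbol, 396, 178 and 150 several and 1193, 1652 and 4001 none.

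Each set was fitted alone on log2(intensity + pseudocount), the pseudocount being the 20th percentile (88.49, 81.23 and 53.13). A probe set was tested if it exceeded its array's 40th percentile on 2 or more arrays (7895, 7786 and 7358 tested); 66 controls per set were not tested. The two-sided test of enriched against depleted used limma 3.58.1 in R 4.3.3 (lmFit and eBayes with a trended prior), Benjamini-Hochberg adjusted within the set; pass means an adjusted p under 0.05. An exact permutation test of 1 value cannot go below 0.1 with 2 against 3 arrays, or 0.333 with 2 against 2. The fit was tested on simulated data.

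The members and gene lists were chosen with earlier results of these data known. Every member probe set is described; of other lists, up to 5 passing genes by size are named and those against the list's direction. Whether same-numbered samples pair was not settled. The correlations of their deviations were 0.03 and 0.06 on A, 0.15 on B, and -0.31 and -0.15 on C. The value on B lay above the limit of 0.1 set for pairing, and the others lay below it. With so few arrays in a group, these correlations cannot show that pairing is absent. Alternatives were other pseudocounts, filters, scalings, prior variance, array weights, a replicate block, adjustment over all sets, averaged probe sets and leaving out each array.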

Additional observations from a re-analysis of the deposited data

How the results depend on the processing

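Member probe sets kept their direction and side of the threshold in 167 results under other settings, lost the call in 2 and reversed in 1. These were Klrk1 on set A without D1 or D2, and Gzma on set C, which ranged from -0.17 to 0.01 with 1 array left out and reversed without D2 (adjusted p = 0.951, limma). Leaving out single arrays gave 3 to 7 falling member probe sets on A and 4 to 7 falling genes; both low counts came from leaving out D1 or D2, when Klra7 and Gzma drop under the 2-array filter; the lone array left in a group is assumed to vary like the other group. With the tested probe sets held fixed, an alternative chosen after seeing the data, 6 of 7 fell in each case, Klrk1 being lost. The replicate block left the member counts at 7 on A, 3 on C and 7 genes; set B shares only 1 number and was not fitted with it. Over all probe sets, the falls went from 1416 to 747 and 730 on A and from 1325 to 849 and 793 on B without D1 and D2, and from 642 to 374 on C without D2. Rises on C went from 699 to 434 without D2 and 416 without E3. Without D1 or D2, falls dropped from 2 to 0 in the lectin-like list, from 5 to 2 in the surface receptor and granule lists from 5 to 1 in the cytokine receptor list, from 3 to 1 in the effector list and from 11 to 6 in the T cell list. Part of these drops came from the 2-array filter, as Klra3, Ctsw, Fasl, Il7r and Cd3d were then no longer tested. These genes kept their calls in every setting that tested them. Klre1, Il18rap, Cxcr3 and Cd4 were still tested and lost theirs. For surface receptors, the stricter filter gave 2 falls and median scaling 8. Dim probe sets (Gzmk, Ncr1, 1 of Klrk1) limit what can be said of size.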
